A study of Mus musculus and Bos taurus with 6 samples.

Results

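The miR-199 and miR-214 miRNA were followed through the small RNA of lactating mammary glands, over 3 groups of 2 libraries each. Members were every line listed for mouse or cattle as miR-199a, miR-199b, miR-199c or miR-214, on either arm of the hairpin. The lists held 6 such lines of 1750 in mouse and 5 of 1539 in cattle, which made 11 of 3289 lines and 8 distinct mature sequences. Lines were picked by name, not by a measured value, though the family itself was chosen with earlier results of these data known.

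The mouse group was total RNA from mammary gland number 4 of primiparous FVB/N mice on day 12 of lactation, taken whole without the lymph node. The AGO2 group was small RNA that came down with an antibody to Argonaute-2 (AGO2) from the lactating gland of FVB/N mice, likewise on day 12. Glands of both sides were taken from 2 mice, and the sources do not say which mouse and AGO2 libraries share an animal. The bovine group was total RNA from biopsies of multiparous Holstein cows in mid-lactation on a low forage diet, each library being a pool of 2 cows. Total RNA was extracted with different kits in mouse and cattle, so that species, kit, biopsy, parity and pooling changed together. All 6 libraries were read as raw counts per mature miRNA, summing to between 3909166 and 10613807 per library. In every group the 2 libraries differed from each other by far more than counting error allows. The SD of the log2 ratio between them, over miRNA at 100 RPM or more, was 0.93 in mouse, 0.88 in AGO2 and 0.31 in bovine. The p-values below rest on the spread between these libraries alone, which the model fits pool in part over all tested miRNA.

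A miRNA gene is transcribed into a hairpin that is cut to a duplex of a 5p and a 3p strand, and one strand is usually kept by an Argonaute protein such as AGO2. Bases 2 to 8 of the kept strand, the seed, lead the complex to its target messenger RNA. Mir199a-2 and Mir214 are made together from Dnm3os, a long noncoding RNA that lies antisense within the dynamin gene Dnm3. They are known from mesenchymal cells such as fibroblasts and are studied in skeletal development and in fibrosis. These libraries hold no messenger RNA, so the cell type that supplied the miRNA was not measured, and in bulk tissue fewer cells of a type and less RNA per cell cannot be told apart.

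The mature sequences are shown because the members differ among themselves by single bases that decide how reads are shared out between them. Capitals mark the seed.
mmu-miR-199a-3p, mmu-miR-199b-3p and bta-miR-199a-3p: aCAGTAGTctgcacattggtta
bta-miR-199c: tACAGTAGtctgcacattgg
mmu-miR-199a-5p: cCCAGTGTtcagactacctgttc
bta-miR-199a-5p: cCCAGTGTtcagactacctgtt
mmu-miR-199b-5p: cCCAGTGTttagactacctgttc
bta-miR-199b: cCCAGTGTttagactatctgttc
mmu-miR-214-3p and bta-miR-214: aCAGCAGGcacagacaggcagt
mmu-miR-214-5p: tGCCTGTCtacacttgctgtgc

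Positions are counted from 1 at the 5′ end. The 3p strands of mouse miR-199a and miR-199b are the same molecule, listed with the same count under both names, and are called miR-199-3p here and counted once. The 5p strands of the mouse paralogs differ by C10T, outside the seed. Bovine miR-199b, a 5p strand by its place in the hairpin, differs from mouse miR-199b-5p by C17T, and from bovine miR-199a-5p by both C10T and C17T. Bovine miR-199c, listed on the 3p side, starts 1 base before miR-199a-3p and then shares 19 bases with it, so that its seed is shifted to ACAGTAG. How many mismatches the counting allowed is not given in the sources used here. The split of reads between miR-199a-5p and miR-199b-5p, and between bovine miR-199a-3p and miR-199c, is therefore uncertain.

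The mouse hairpins below show where each listed strand lies, with the 5p and then the 3p strand in capitals. The hairpin sequences come from RefSeq on GRCm38.p6. The strands were placed by finding the listed mature sequences within them.
Mir199a-2: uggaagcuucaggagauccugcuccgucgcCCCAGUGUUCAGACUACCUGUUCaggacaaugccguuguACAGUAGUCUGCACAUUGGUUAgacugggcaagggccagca
Mir214: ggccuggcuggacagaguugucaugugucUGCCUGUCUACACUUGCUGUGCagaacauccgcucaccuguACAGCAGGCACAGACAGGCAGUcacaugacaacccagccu
Mir199b: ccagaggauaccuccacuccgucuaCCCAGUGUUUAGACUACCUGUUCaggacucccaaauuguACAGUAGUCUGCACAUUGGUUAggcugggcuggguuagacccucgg

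Mir199a-2 lies at chr1:162217814-162217923 and Mir214 at chr1:162223368-162223477, both on the plus strand of GRCm38, with 5444 bases between them. Both sit in an exon of Dnm3os (chr1:162217623-162225550) on its own strand, and in an intron of Dnm3 on the opposite strand. Mir199b lies at chr2:32318460-32318569 on the plus strand, in an intron of the dynamin gene Dnm1 that is read the other way. The 2nd copy of miR-199a, Mir199a-1 at chr9:21496495-21496564 on the minus strand, lies likewise within an intron of Dnm2 on the opposite strand. Reads of mature miR-199a cannot be assigned to Mir199a-1 or Mir199a-2, and reads of miR-199-3p may come from any of the 3 miR-199 hairpins.

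The 3p strand of miR-199 was the most abundant member in every library, and the 5p strand of miR-214 was close to the limit of detection. Levels are given in RPM, counts scaled to the total of all listed miRNA in the library. Together the members took 0.310% and 0.560% of the 2 mouse libraries, 0.514% and 0.437% of the AGO2 libraries, and 1.19% and 1.18% of the bovine libraries. The mouse and AGO2 shares overlapped, and both bovine shares lay above all 4 of them.

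MiR-199-3p, the abundant strand, was at 2454 and 5021 RPM in the mouse libraries (3737 ± 1816, SD, n = 2), where its mean ranked it number 47. It was at 4109 and 3032 RPM in the AGO2 libraries (3571 ± 761), number 35. In the bovine libraries it was at 7829 and 8134 RPM (7981 ± 215), number 30. Both bovine libraries were above all mouse libraries, while the AGO2 libraries lay between the 2 mouse ones.

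MiR-199a-5p, the partner strand, was at 227 and 338 RPM in mouse (282 ± 78.3), 610 and 891 RPM in AGO2 (750 ± 198.8) and 290 and 255 RPM in bovine (273 ± 24.9). The AGO2 libraries were the highest, and the mouse and bovine libraries overlapped. MiR-199b-5p was at 81.0 and 176 RPM in mouse (128 ± 67.2), 311 and 407 RPM in AGO2 (359 ± 67.8) and 2483 and 2098 RPM in bovine (2290 ± 272). The 3 groups did not overlap for this strand, with bovine highest and mouse lowest. The pair shares the seed CCAGTGT, and their sum was 411 ± 145 RPM in mouse, 1110 ± 267 in AGO2 and 2563 ± 297 in bovine. Bovine miR-199c was at 819 and 892 RPM (856 ± 51.5), which was 9.47% (95% exact binomial interval 9.27 to 9.67) and 9.88% (9.69 to 10.1) of the reads of both bovine 3p lines.

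MiR-214-3p, the arm usually kept from Mir214, was at 335 and 63.2 RPM in mouse (199.3 ± 192), 107 and 35.1 RPM in AGO2 (71.0 ± 50.8) and 446 and 448 RPM in bovine (447 ± 1.15). The mouse libraries stood 5.31-fold apart and the AGO2 libraries 3.05-fold, and only the bovine pair was close. The mouse and AGO2 libraries overlapped, and both bovine libraries were above them. MiR-214-5p was at 1.08 and 0.953 RPM in mouse, from 10 and 8 reads. It had 0 reads in the AGO2 library 1, where 0 allows up to 0.767 RPM, and 11 reads or 2.18 RPM in the AGO2 library 2. As PCR copies of a molecule were not told apart, intervals and limits cover counting error alone.

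**Figure D1:**
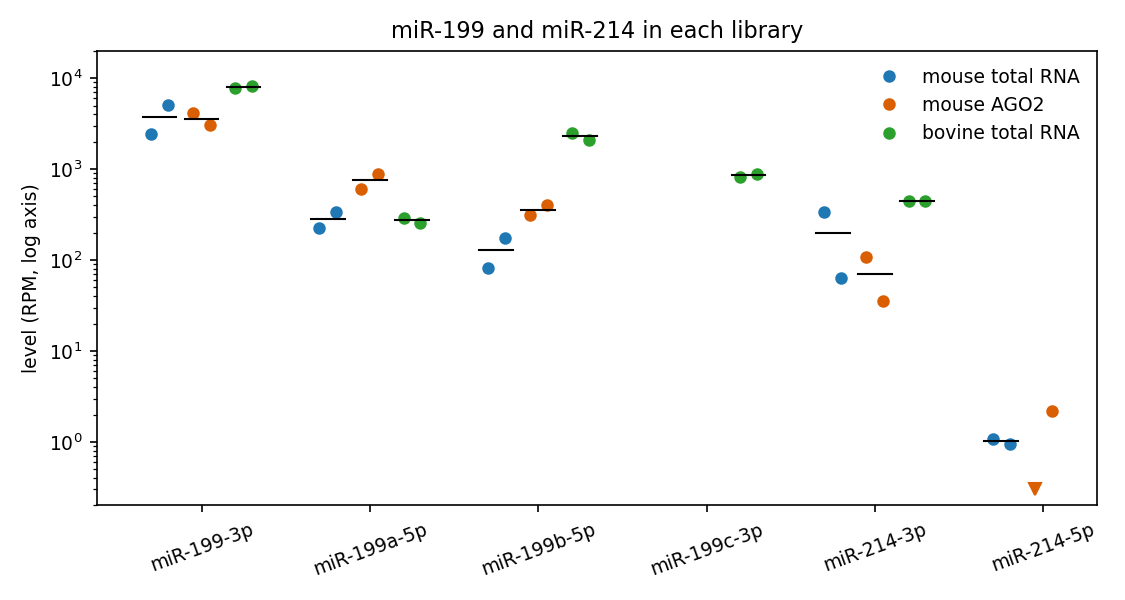
Level of each member in RPM (log axis) in the single libraries of the mouse, AGO2 and bovine groups. Points are libraries, black lines are means of 2, and the triangle at the bottom marks the AGO2 library with 0 reads of miR-214-5p. MiR-199-3p is the highest member everywhere, from 2454 to 8134 RPM, and miR-199b-5p rises from 128 RPM in mouse to 2290 RPM in bovine.

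Ordered by mean level, the mouse and AGO2 groups gave the same sequence of members from miR-199-3p down to miR-199a-5p. Below it came miR-214-3p and miR-199b-5p in mouse, and the 2 libraries of miR-214-3p spanned or overlapped those of both neighbours. In AGO2 came miR-199b-5p and then miR-214-3p, with no overlap between neighbours. In bovine the order was miR-199-3p, miR-199b-5p, miR-199c, miR-214-3p and miR-199a-5p, with no overlap between neighbours. Levels of different miRNA were set side by side without correction for how well each sequence enters a library.

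The first comparison asked which members were higher or lower in the RNA held by AGO2 than in mouse total RNA. The 5p strands of both miR-199 paralogs were higher in both AGO2 libraries than in either mouse library, while for miR-199-3p the AGO2 libraries lay between the mouse ones and for miR-214-3p the groups overlapped. None of these differences passed the threshold in the edgeR fit, while DESeq2 called both 5p strands. MiR-214-5p, with at most 11 reads, was below the minimum count for the test.

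MiR-199a-5p was at 209 and 330 TMM-normalised CPM, counts scaled like RPM after TMM correction of the totals, in mouse and 617 and 978 in AGO2, a log2 fold change of 1.57 (SE 0.64, Benjamini-Hochberg adjusted p = 0.0692, edgeR quasi-likelihood test). MiR-199b-5p was at 74.5 and 172 CPM in mouse and 315 and 447 in AGO2, a log2 fold change of 1.63 (SE 0.67, adjusted p = 0.0690 by the same edgeR test). The differences of the 2 strands were within 1 SE of each other.

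MiR-199-3p was at 2258 and 4909 CPM in mouse and 4159 and 3329 in AGO2, a log2 fold change of 0.06 (SE 0.53, adjusted p = 0.928, edgeR). Its sign changed when library totals alone were used for scaling, to -0.07. MiR-214-3p was at 309 and 61.8 CPM in mouse and 108 and 38.5 in AGO2, a log2 fold change of -1.34 (SE 0.76, adjusted p = 0.186, edgeR). Without mouse library 1 it was 0.25, and without the same library miR-199-3p stood at -0.39.

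Over all 299 miRNA tested, 27.8% passed an adjusted p under 0.05 in edgeR, 15.4% as higher and 12.4% as lower in AGO2. Of the 4 member sequences tested, 0 passed. At an unadjusted p under 0.05 it was 2 of 4, both 5p strands, against 43.8% of all miRNA. DESeq2 called the same 2, with log2 fold changes of 1.66 (adjusted p = 0.0100) for miR-199a-5p and 1.71 (adjusted p = 0.0209) for miR-199b-5p. Over all 299 miRNA DESeq2 called 69 as higher and 48 as lower in AGO2. Leaving out each library in turn gave edgeR log2 fold changes of 1.28 to 2.18 for miR-199a-5p and 1.15 to 2.30 for miR-199b-5p. With all 4 libraries kept, the adjusted p over the alternatives in edgeR or DESeq2 ranged from 0.0100 to 0.234 for miR-199a-5p. For miR-199b-5p it ranged from 0.0209 to 0.305. Groups did not overlap for 2 of 4 members, both higher in AGO2, and for 72.9% of all miRNA, 33.1% as higher and 39.8% as lower. The median log2 fold change was 0.81 over the 4 members and -0.12 over all miRNA.

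A ratio of strands within a library does not depend on how libraries are scaled, and here it set the 5p strands of miR-199 against the 3p strand. The 5p strands made up 11.1% (95% exact binomial interval 10.8 to 11.5) and 9.28% (9.02 to 9.55) of miR-199 reads in the mouse libraries. They made up 18.3% (17.8 to 18.9) and 29.98% (29.4 to 30.6) in the AGO2 libraries. The share was thus higher in both AGO2 libraries, on average by 13.9 percentage points, and the AGO2 libraries also differed from each other beyond counting error. The exact two-sided permutation test gave p = 0.333, the smallest value that 2 libraries against 2 allow, and an adjusted p of 0.485 over the 16 tests of within-library quantities.

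The log2 ratio of miR-199a-5p to miR-199-3p went from -3.66 ± 0.33 in mouse to -2.26 ± 0.70 in AGO2 (SD, n = 2), a difference of 1.41 or 2.65-fold. That of miR-199b-5p to miR-199-3p went from -4.88 ± 0.06 to -3.31 ± 0.58, a difference of 1.57 or 2.97-fold. Both ratios were higher in AGO2 without overlap, again at the smallest p the design allows. Among 55 other hairpins with both strands tested, the ratio of 5p to 3p was higher in AGO2 without overlap for 14, or 25.5%, and lower without overlap for 30, which together were 80%. The median change over these hairpins was -1.22 on the log2 scale, with quartiles at -2.61 and 0.74.

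MiR-214 had too few 5p reads for the same reading. Its 5p share was 0.320% (0.153 to 0.587) and 1.49% (0.644 to 2.91) in mouse. In AGO2 it was 0 of 418 reads (0% to 0.879% by the same exact interval) and 5.85% (2.96 to 10.2), and the groups overlapped.

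The second comparison set bovine gland against mouse gland, for miRNA matched by name and arm. It shares the 2 mouse libraries with the first, so a mouse library that stands apart enters both. MiR-199b-5p was the one member that passed the test and was much higher in bovine gland. MiR-199a-5p, its paralog on the same seed, overlapped with mouse, and miR-199-3p and miR-214-3p lay above both mouse libraries without passing.

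MiR-199b-5p was at 82.2 and 192 CPM in mouse and 2291 and 2057 in bovine, a log2 fold change of 3.99 (SE 0.53, adjusted p = 0.00211, edgeR quasi-likelihood test, Benjamini-Hochberg). With all 4 libraries kept it passed under every alternative that gave a value, in edgeR or DESeq2, with adjusted p from 2.42e-14 to 0.00539. Over all alternatives, leaving out each library among them, the log2 fold change was 3.42 to 4.65. MiR-199a-5p was at 230 and 368 CPM in mouse and 268 and 250 in bovine, a log2 fold change of -0.21 (SE 0.39, adjusted p = 0.649, edgeR). Without mouse library 2 its sign turned to 0.09, and without mouse library 1 it was -0.59.

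MiR-199-3p was at 2491 and 5466 CPM in mouse and 7226 and 7975 in bovine, a log2 fold change of 0.93 (SE 0.43, adjusted p = 0.116, edgeR). Without mouse library 2 it was 1.53, and without mouse library 1 it was 0.39. MiR-214-3p was at 340 and 68.8 CPM in mouse and 412 and 439 in bovine, a log2 fold change of 1.06 (SE 0.74, adjusted p = 0.267, edgeR). Without mouse library 1 it was 2.54, and without mouse library 2 it was 0.24. The size of the change in these 2 members therefore turned on which mouse library was kept. A fit with 1 mouse library left holds no spread within mouse, so no test is given for these values.

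Of the 139 matched miRNA tested, 55.4% passed, 29.5% as higher and 25.9% as lower in bovine, against 1 of the 4 members. At an unadjusted p under 0.05 it was 60.4% of all and the same 1 member. Groups did not overlap for 84.2% of all matched miRNA, 46.8% as higher and 37.4% as lower, and for 3 of the 4 members, all higher. The median log2 fold change was 1.00 over the members and 0.21 over all matched miRNA.

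Within a library, the larger 5p strand of miR-199 was miR-199a-5p in mouse and miR-199b-5p in cattle. MiR-199b-5p made up 26.3% (95% exact binomial interval 24.7 to 27.95) and 34.3% (32.9 to 35.7) of the 5p reads of miR-199 in mouse. In the AGO2 libraries its share was 33.8% (32.3 to 35.4) and 31.4% (30.2 to 32.5). In bovine it was 89.5% (89.1 to 89.9) and 89.2% (88.8 to 89.5). MiR-199a-5p was thus the larger part in all 4 mouse and AGO2 libraries and the smaller part in both bovine libraries.

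The ratio of miR-199b-5p to miR-199a-5p was 0.357 and 0.521 in mouse, 0.510 and 0.457 in AGO2 and 8.55 and 8.22 in bovine. On the log2 scale bovine exceeded mouse by 4.28, or 19.4-fold, without overlap (exact two-sided permutation test, p = 0.333, the smallest the design allows, adjusted p = 0.485). AGO2 exceeded mouse by 0.16 with overlap (exact permutation p = 1). The paralogs differ by 1 base in mouse and 2 in cattle over the bases they share, and their reads could be mis-shared more easily in mouse. The part of this in the ratio was not tested.

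Against the shared 3p strand, the bovine glands held more miR-199b-5p and less miR-199a-5p than the mouse glands. The log2 ratio of miR-199b-5p to miR-199-3p was -1.81 ± 0.21 in bovine, 3.07 above mouse or 8.41-fold. That of miR-199a-5p to miR-199-3p was -4.87 ± 0.17, 1.21 below mouse. Neither ratio overlapped between the groups, each with an exact permutation p = 0.333. The 5p share of all miR-199 reads was 24.3% and 20.7% in bovine (22.5% ± 2.54), above both mouse libraries, and 24.3% ± 2.63 when miR-199c was left out of the 3p reads. Among 6 other hairpins with both strands tested in both species, the ratio of 5p to 3p was higher in bovine without overlap for 2, or 33.3%, and did not overlap in either direction for 50%.

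**Figure D2:**
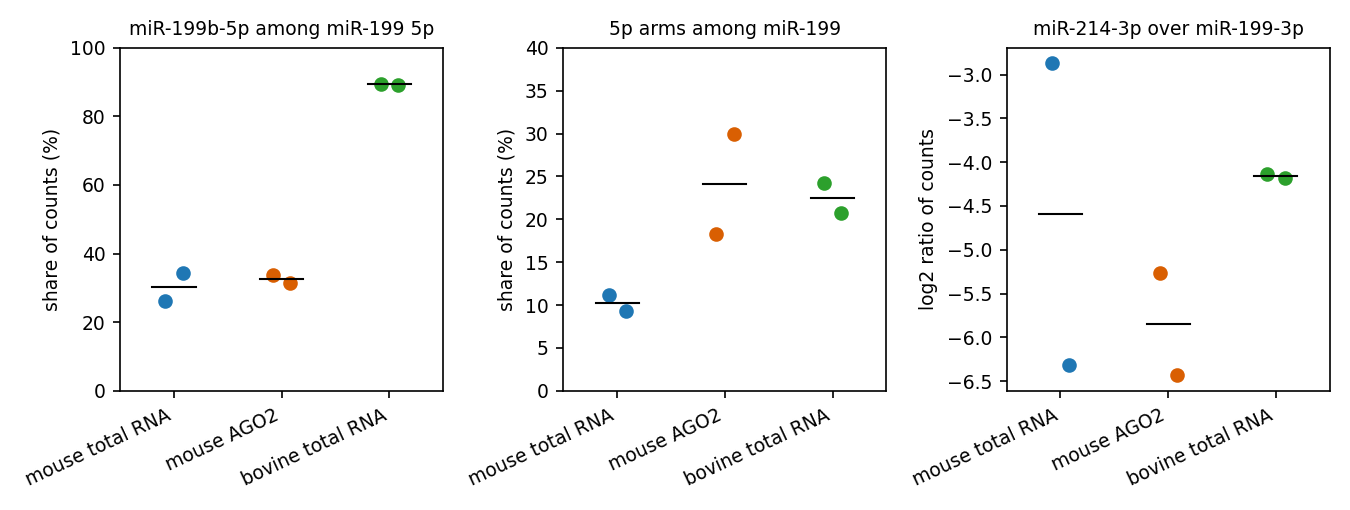
Quantities within each library for the mouse, AGO2 and bovine groups: the share of miR-199b-5p in the 5p reads of miR-199 (%), the share of 5p strands in all miR-199 reads (%), and the log2 ratio of miR-214-3p to miR-199-3p. Points are libraries and black lines are means of 2. The first share is 30.3% in mouse, 32.6% in AGO2 and 89.3% in bovine, the second is lowest in the mouse libraries, and the ratio spans -6.31 to -2.87 in mouse.

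**Figure D3:**
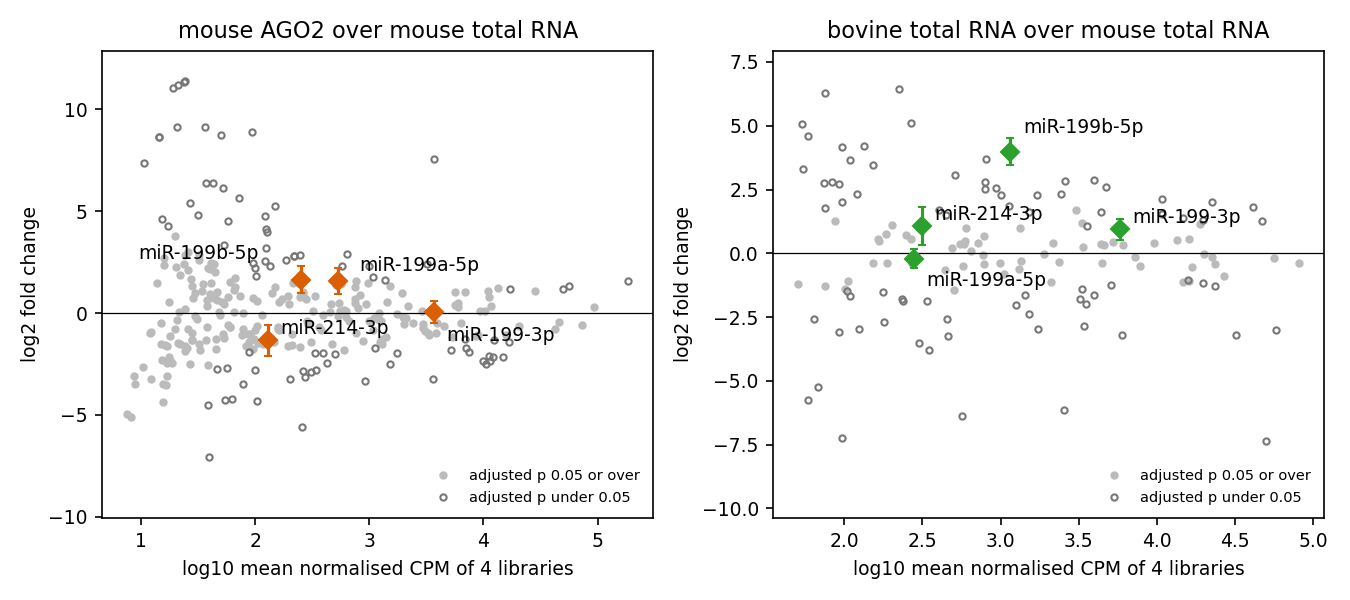
Log2 fold change of every tested miRNA against its mean level (log10 of normalised CPM over 4 libraries), AGO2 over mouse on the left and bovine over mouse on the right. Coloured diamonds are the members with their standard error, open circles passed an adjusted p under 0.05 and filled grey points did not. MiR-199b-5p at 3.99 in bovine is the one member past the threshold in these edgeR fits, and in AGO2 both 5p strands, which DESeq2 called, lie near 1.6.

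Mir214 and Mir199a-2 come from a single transcript, but their main strands did not keep a fixed ratio between mouse libraries. MiR-214-3p over miR-199-3p was 0.137 and 0.0126 in mouse, 0.0260 and 0.0116 in AGO2 and 0.0570 and 0.0551 in bovine. The bovine libraries lay between the 2 mouse libraries, and on the log2 scale neither AGO2 (-1.26 from mouse, exact permutation p = 0.667) nor bovine (0.43, exact permutation p = 1) was separated from mouse. Since miR-199-3p also comes from Mir199b and Mir199a-1, the ratio is not that of the 2 hairpins of Dnm3os alone.

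Between the 2 mouse libraries, miR-214-3p and the strands of miR-199 differed in opposite directions. Its log2 ratio of mouse library 1 to library 2 was 2.41, with 4 of 170 miRNA at 100 RPM or more lying higher. For miR-199-3p it was -1.03, for miR-199a-5p -0.57 and for miR-199b-5p -1.12. In AGO2 the log2 ratio of library 1 to library 2 was 1.61 for miR-214-3p, with 5 of 166 miRNA higher, and in bovine all members lay between -0.12 and 0.24.

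The GC content of the mature sequence moved with this gap in mouse. MiR-214-3p has 59.1% GC, miR-199a-5p 52.2%, miR-199b-5p 47.8% and miR-199-3p 40.9%. The members did not follow GC throughout, as miR-199b-5p at -1.12 lay below miR-199-3p at -1.03. Over mouse miRNA with at least 55% GC (24 miRNA) the median log2 ratio of library 1 to library 2 was 1.22, and over those under 45% (74 miRNA) it was -0.29. The same medians were 0.16 and 0.07 in AGO2, and 0.11 and 0.02 in bovine. The part of GC content in the gap of miR-214-3p was not tested.

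**Figure D4:**
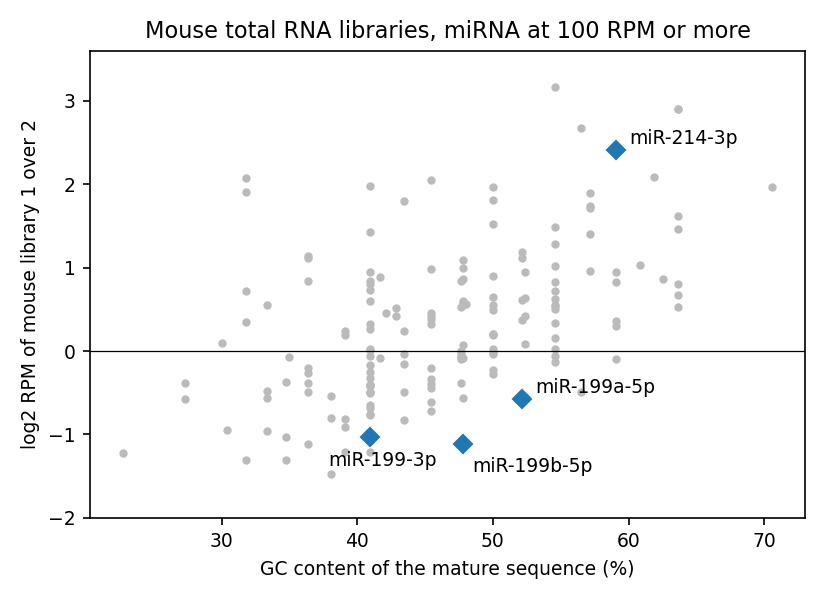
Log2 ratio of the RPM of mouse library 1 to library 2 against the GC content of the mature sequence (%), for 170 miRNA at 100 RPM or more. Grey points are other miRNA and diamonds are members. MiR-214-3p lies at 2.41 and the 3 strands of miR-199 lie between -1.12 and -0.57.

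The miRNA whose levels ran most like the members over the 4 mouse and AGO2 libraries were found by the root mean square difference of centred log2 (RPM + 1), among 294 other miRNA. Nearest to miR-199-3p were miR-21a-5p (0.0528), miR-10a-5p (0.193) and miR-101a-3p (0.245). Nearest to miR-199a-5p were miR-29c-3p (0.0655), miR-142-5p (0.168) and miR-29a-3p (0.188). MiR-199b-5p was followed by miR-345-5p (0.128), miR-200a-3p (0.233) and miR-29c-3p (0.254), and miR-214-3p by miR-652-3p (0.243), let-7b-5p (0.315) and miR-200c-3p (0.339). Among the members, miR-199a-5p and miR-199b-5p were close (0.214), while miR-199-3p was farther from them (0.799 and 0.833) and miR-214-3p farthest from all others (1.42 to 1.99). With 4 libraries of 2 groups such likeness is a description only.

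Seeds were shared with few other listed miRNA. ACAGTAG, the seed of bovine miR-199c, was found in 1 predicted mouse miRNA with 7 reads in 1 AGO2 library and 0 in the other 3 mouse and AGO2 libraries. No other listed miRNA had the seeds of miR-199-3p, the miR-199 5p pair or miR-214-3p.

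Other miRNA known from mesenchymal cells were present in all 6 libraries. A list of 11 strands of miR-143, miR-145, miR-218, miR-127 and miR-490 had 9 listed in mouse and 4 in cattle. It summed to 5.19% and 6.65% of reads in mouse, 3.28% and 3.15% in AGO2 and 6.98% and 5.52% in bovine. Its most abundant member, miR-143-3p of contractile and stromal cells, was at 49139 and 63991 RPM in mouse, 29362 and 29602 in AGO2 and 63041 and 48791 in bovine. In the list 0 of 5 tested miRNA passed in edgeR for AGO2 against mouse, 1 of 5 at an unadjusted p under 0.05 and 0 by DESeq2, with a median log2 fold change of -0.79. For bovine against mouse 0 of 2 passed, with 0 at an unadjusted p under 0.05 and 0 by DESeq2. MiR-145-5p was not among the 2, as it is named miR-145a-5p in mouse. It was at 2289 and 1772 RPM in mouse and at 6434 and 6064 RPM in bovine, a difference that was not tested. MiR-218-2-3p and miR-490-3p were at 0 in both AGO2 libraries, and at most 0.238 and 0.323 RPM in the mouse libraries, which was within the limit of a count of 0.

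Markers of epithelium, the milk-making cells, summed to shares that did not overlap between any of the groups. A list of 9 guide strands of the miR-200 family, miR-205 and the miR-183 cluster summed to 16.3% and 19.2% in mouse, 34.0% and 37.0% in AGO2 and 7.83% and 8.02% in bovine. For AGO2 against mouse 2 of 9 passed as higher and 2 as lower, and for bovine against mouse 1 as higher and 6 as lower. The median log2 fold change over the list was -0.63 in AGO2, although the sum was higher there, and -2.01 in bovine. MiR-200a-3p, its most abundant member in mouse, was at 75449 and 118479 RPM in mouse. It was at 267861 and 255991 RPM in AGO2 and at 13948 and 13093 RPM in bovine. Endothelial miR-126 summed to between 2.42% and 3.43% in mouse, 2.88% and 2.93% in AGO2 and 5.60% and 6.24% in bovine. One of its 2 strands passed as higher and 1 as lower in AGO2, and neither was tested against bovine because the names differ.

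The leukocyte list of 5 ranged from 0.126% to 0.212% in mouse, 0.235% to 0.297% in AGO2 and 0.255% to 0.328% in bovine. In AGO2 0 of its 5 miRNA passed in edgeR, 1 at an unadjusted p under 0.05 and 2 by DESeq2, and in bovine 2 passed as higher and 1 as lower. The erythroid list took 0.652% to 1.34%, 1.56% to 3.25% and 0.110% to 0.171% in the same order, with 1 of 4 higher in AGO2 and 1 of 2 lower in bovine. The list of striated muscle took at most 0.0782% of any library, with 1 of 2 lower in AGO2 and none tested against bovine. MiR-1-3p, named miR-1a-3p in mouse, was not matched. It was at 159 and 207 RPM in mouse and at 713 and 768 RPM in bovine. The part of the shifts in epithelial, endothelial, leukocyte and erythroid miRNA in the members' levels was not tested.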

How the data were processed

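The authors sequenced small RNA with Illumina chemistry and, after poly-A trimming, used reads from 17 to 28 nt long. The miRDeep2 quantifier assigned these to miRBase 20 and to predicted precursors. The deposited counts are raw reads per mature miRNA, and a normalised column was not used. Lists of predicted precursors on GRCm38 and UMD3.1 were not used either. The miRDeep2 version is not given in the sources used here. Libraries are numbered in accession order, which pairs nothing.

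RPM used the sum of each library's counts, from 3909166 to 10613807, where 3 counts are 0.283 to 0.767 RPM. Counts were tested with edgeR 4.0.16 (TMM, quasi-likelihood test, Benjamini-Hochberg over all tested miRNA) in R 4.3.3, at an adjusted p under 0.05. The SE of an edgeR log2 fold change was worked back from the test, as its absolute value divided by the square root of the F value. The AGO2 fit took miRNA above 175 counts in at least 1 of 4 libraries. The bovine fit took 229 miRNA matched by name and arm, of which 139 reached 100 RPM in at least 1 library. Within-library ratios were compared by exact permutation, and the exact binomial intervals came from SciPy 1.17.1.

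Alternatives were DESeq2 1.42.0, its size factors, library totals, no minimum, identical sequences once, matching by the first 18 bases, and leaving out each library. A fit with the GC trend removed was added after seeing the data. The edgeR step was tested on simulated data. Named miRNA are all members, the 3 nearest in profile to each main strand, those sharing a seed, and examples from the marker lists. Mouse miRNA are matched to 4 RefSeq hairpins and GENCODE M21 genes. Members, marker lists and tests were chosen with earlier results of these data known.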

Additional observations from a re-analysis of the deposited data

Results flagged for a closer look

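One line outside the members carried reads of their family. The bovine libraries list the passenger strand of miR-214 under its human name, hsa-miR-214-5p, with the same sequence as mouse miR-214-5p. It had 5 reads or 0.532 RPM in bovine library 1 and 8 reads or 0.754 RPM in bovine library 2, above the 0.319 and 0.283 RPM that a count of 0 allows. Beside miR-214-3p this is a 5p share of 0.119% (95% exact binomial interval 0.0386 to 0.277) and 0.168% (0.0725 to 0.331). The mouse libraries had 0.320% (0.153 to 0.587) and 1.49% (0.644 to 2.91), and the intervals of both bovine libraries overlapped that of mouse library 1.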

How the results depend on the processing

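Of 201 alternative values, 178 counted as unchanged. A fold change had to keep its direction and its side of the threshold, and a count of miRNA had to stay within 1.5 times. A level or within-library ratio had to stay within 1 SD of its group's mean. Every level and ratio met this. Leaving out 1 of 2 libraries always meets it, so that setting could not show a change in them. For miR-199a-5p in AGO2 the log2 fold change was 1.66 with DESeq2, 1.66 with its size factors and 1.64 with the GC trend removed, and for miR-199b-5p 1.71, 1.71 and 1.78, all past the threshold. Leaving out each library gave 1.28 to 2.18 and 1.15 to 2.30. MiR-199-3p in AGO2 was -0.066 with library totals and -0.061 with no minimum, and -0.39 to 0.68 leaving out each library. MiR-214-3p in AGO2 went from -2.13 to 0.25 in the same way. For bovine against mouse, leaving out each library gave 0.39 to 1.53 for miR-199-3p, -0.59 to 0.090 for miR-199a-5p and 0.24 to 2.54 for miR-214-3p. The cause was not tested.

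The 46 miRNA higher in AGO2 became 29 with no minimum, where 1750 were tested, and 69 with DESeq2. The 37 lower were 21 to 33 leaving out each library, and 48 with DESeq2. The 41 higher in bovine were 27 to 57, lowest without bovine library 2, and the 36 lower were 19 to 51 in the same way, and 69 with no minimum, where 229 were tested. Relative to the reported fit, the median of all log2 fold changes moved in AGO2 by 0.11 with DESeq2 and -0.15 with library totals, and in bovine by -0.19 and 0.14. Matching by 18 bases left miR-199b-5p without a bovine partner. No paired analysis was possible because the labels carry no replicate numbers and do not say which libraries share a mouse. With 2 libraries a group, the exact permutation test of a within-library ratio could not reach an adjusted p under 0.05, and miR-214-5p was too rare to test.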
